A study of Mus musculus with 8 samples.

Results

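Nuclear receptors are transcription factors that many small lipophilic ligands switch on, and coregulators are the proteins that they recruit to raise or lower transcription. The genes described here are 33 nuclear receptors and 4 coregulators, chosen by name from a list, and all 37 were found among the 25239 gene symbols of each liver's count list. The livers came from adult male mice whose Smo alleles are flanked by loxP sites (Smo tm2Amc/J, written Smo fl/fl, on C57Bl6/J), and their age was given only as adult, since the methods state an age in weeks for a chow-fed cohort and not for these mice. All mice were kept for 6 weeks on CDA-HFD, a choline-deficient, amino acid-defined high-fat diet that produces steatohepatitis. In the last week each mouse received an adeno-associated virus (AAV8) through the tail vein, carrying under the hepatocyte promoter TBG either luciferase (control, 4 mice) or Cre recombinase (Smo-KO, 4 mice). The Cre vector removes Smo, the transducer of Hedgehog signaling, and its promoter restricts this to hepatocytes, so that all other liver cells keep the gene. The control mice therefore carried floxed Smo, the diet and a virus as well, and differed in the gene the virus delivered. RNA-Seq was done on the whole liver, and the question for this group of genes was how abundant each is and whether its level differed between the genotypes.

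Each receptor binds DNA as a monomer, as a homodimer or, in many liver receptors, as a heterodimer with a retinoid X receptor. In the liver these factors read out fatty acids, oxysterols, bile acids, retinoids, thyroid hormone, steroids and xenobiotics and control the lipid, bile acid and drug metabolism genes of the hepatocyte. Corepressors such as NCoR1 silence target genes in the absence of ligand, and coactivators of the p160 family (Ncoa1, Ncoa2 and Ncoa3) bring histone acetyltransferases when ligand is bound.

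The libraries held between 8203299 and 9999732 reads on genes, so that 3 reads, the lowest count taken as measurable, correspond to 0.297 to 0.366 CPM. CPM are the reads on a gene for every 1000000 reads on all genes, after TMM scaling, a scaling that sets the bulk of the genes equal between libraries. Smo itself was at 8.17, 8.49, 8.74 and 8.21 CPM in control livers 1 to 4 and at 5.67, 3.93, 4.27 and 4.37 CPM in Smo-KO livers 1 to 4. All Smo-KO livers lay below all control livers, and Smo-KO liver 1 had the highest level of its group. The log2 fold change of Smo was -0.88 (SE 0.158) (edgeR's quasi-likelihood test, Benjamini-Hochberg adjusted over the 12977 genes that passed the filter on low counts, adjusted p = 0.0957), and the exact permutation test of its CPM gave a two-sided p of 0.0286, the smallest that the 70 assignments of the livers allow. The count spans the whole gene and all liver cells, deleted or not. Albumin (Alb), the main secreted protein of hepatocytes, was at 16570 CPM in control and 15338 CPM in Smo-KO livers, and all 10 hepatocyte markers examined were tested.

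The promoters of 5 of the genes are shown here, ahead of their values. RefSeq promoters on GRCm38.p6 were matched for 33 of the 37 genes, with 54 start sites. The letters AGGTCA, the half-site that most nuclear receptors bind, TGACG, the half-site of the cyclic AMP response element, and GACCACCCA, the core of the Gli site through which Hedgehog signaling acts, were searched on both strands in the 250 bases before each start, and overlapping matches were each counted. AGGTCA was found in 8 of the 54 promoters, against 14.0% of all 32851 promoters. TGACG was found in 10 of the 54, against 17.8% of all. GACCACCCA was found in 0 of the 54, against 0.225% of all. The 3 NR4A genes, orphan receptors known as immediate early genes that are induced through cyclic AMP signaling, each had 4 TGACG matches, and 45 of all promoters (0.137%) had at least 4. These are matches of letters and not measured binding sites. The NR4A promoters are shown because all 3 share this feature and Nr4a2 had the lowest adjusted p of the members, and capitals mark TGACG or its reverse complement. The stretch of Nr4a3 ends where the annotated first exon of GENCODE M21 begins and leaves out the last of its 4 matches.
Nr4a1, chr15:101266596-101266845, plus strand, 5′ to 3′: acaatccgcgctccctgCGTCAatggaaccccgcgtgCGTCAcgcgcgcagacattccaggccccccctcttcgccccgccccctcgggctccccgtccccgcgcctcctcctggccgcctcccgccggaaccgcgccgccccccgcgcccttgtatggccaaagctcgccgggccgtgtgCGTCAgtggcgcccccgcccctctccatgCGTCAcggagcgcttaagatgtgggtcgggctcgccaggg
Nr4a2, chr2:57124004-57124253, minus strand, 5′ to 3′: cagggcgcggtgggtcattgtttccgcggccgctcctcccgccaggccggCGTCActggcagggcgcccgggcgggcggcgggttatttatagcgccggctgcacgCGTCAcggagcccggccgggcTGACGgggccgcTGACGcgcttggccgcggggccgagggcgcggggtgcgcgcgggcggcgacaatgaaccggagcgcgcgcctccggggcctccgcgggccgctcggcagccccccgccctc
Nr4a3, chr4:48045055-48045152, plus strand, 5′ to 3′: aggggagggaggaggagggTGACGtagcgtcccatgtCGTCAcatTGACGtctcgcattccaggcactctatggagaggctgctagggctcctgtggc

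Rxrg and Nr1i3, the retinoid X receptor and the xenobiotic receptor whose livers separated by genotype, are shown for comparison. The second of the 2 RefSeq start sites of Rxrg has an AGGTCA match 88 bases before the start, in capitals, and the promoter of Nr1i3 has none of the 3 motifs.
Rxrg, chr1:167618015-167618264, plus strand, 5′ to 3′: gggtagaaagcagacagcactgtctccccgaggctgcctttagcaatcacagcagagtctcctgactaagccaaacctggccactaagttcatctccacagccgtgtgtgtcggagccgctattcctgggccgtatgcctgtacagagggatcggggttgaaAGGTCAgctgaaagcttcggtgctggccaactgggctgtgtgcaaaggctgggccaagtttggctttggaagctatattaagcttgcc
Nr1i3, chr1:171213720-171213969, plus strand, 5′ to 3′: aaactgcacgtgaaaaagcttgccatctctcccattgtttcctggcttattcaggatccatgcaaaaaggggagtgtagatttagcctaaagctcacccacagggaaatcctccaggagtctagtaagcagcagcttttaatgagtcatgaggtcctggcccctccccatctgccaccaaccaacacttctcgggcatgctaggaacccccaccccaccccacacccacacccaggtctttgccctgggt

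The level of the members spanned a wide range. To compare genes with each other, CPM were divided by the length of the gene's exon union in kilobases (CPM per kb), and errors are the SD over the 4 control livers. Hnf4a, the receptor that maintains hepatocyte identity, had the highest level per kb of exon union in control livers at 112 ± 4.57 CPM per kb. Nr2f6, an orphan receptor of the COUP-TF family, followed at 95.5 ± 7.50 CPM per kb, and the oxysterol receptor Nr1h3 (LXRα) stood at 87.0 ± 3.79 CPM per kb. Rxra, the main heterodimer partner in the liver, stood at 86.3 ± 7.84 CPM per kb, and the pregnane X receptor Nr1i2 at 45.6 ± 5.46 CPM per kb. The levels of Nr1h3 and Rxra did not differ beyond their spread. The order at the top depended on the length used, and with the longest transcript in place of the exon union Nr2f6 (128.5 CPM per kb) stood above Hnf4a (124 CPM per kb) and Nr1h2 moved from rank 7 to rank 5. The 5 most abundant members held 71.0% of the summed level of the 37. Nr1i3 (the constitutive androstane receptor, CAR), Nr1h2 (LXRβ), Esrra, Rxrb and Rara completed the first 10, from 31.1 ± 8.66 CPM per kb for Nr1i3 down to 12.0 ± 1.13 CPM per kb for Rara.

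Of the 36 pairs of neighbours in this order, 13 lay apart by more than both SDs added and 23 did not, so that the order is one of tiers more than of ranks. The middle tier held Pparg (9.48 ± 1.01 CPM per kb), the fat cell receptor that is induced in fatty liver, Ncor1 (7.12 ± 0.331 CPM per kb) and Rxrg (6.19 ± 0.144 CPM per kb). At the bottom of the order, Vdr, the vitamin D receptor, had 2 to 8 reads per liver. Esrrb had 2 to 7 reads and Hnf4g 0 to 2 reads. These 3 had too few reads for the filter on low counts, and the other 34 entered the fit. Between the highest and the lowest gene tested (Hnf4a and Nr2f1) the level differed 602-fold. On the CPM scale with no length, 27 members were above 10 CPM in control livers and 7 above 100 CPM.

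**Figure D1:**
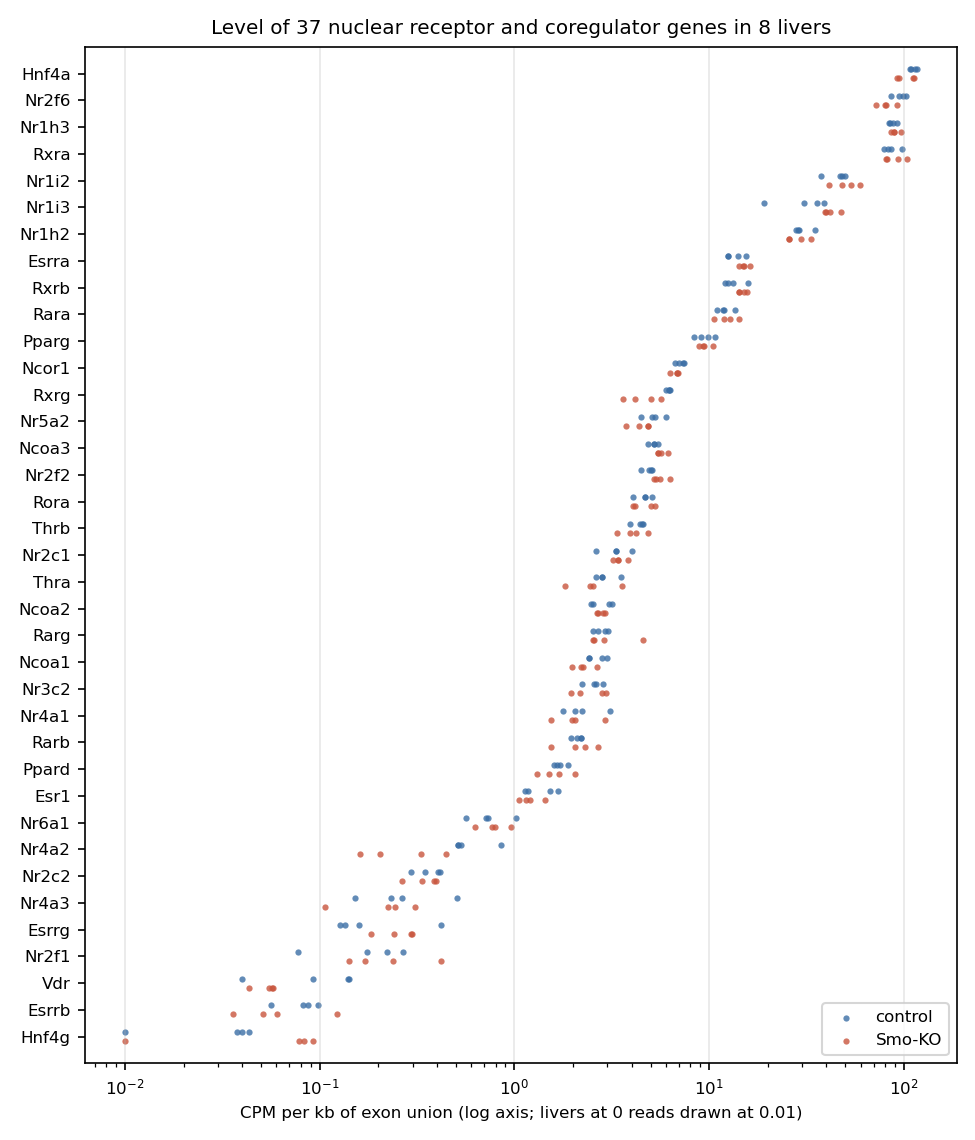
Level of each of the 37 genes in CPM per kb of exon union (log axis), with a point for each control liver (blue) and each Smo-KO liver (red), ordered by the control mean. Hnf4a, Nr2f6, Nr1h3 and Rxra lie at the top, and Vdr, Esrrb and Hnf4g, with at most 8 reads in a liver, at the bottom.

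Within families, 1 member held most of the level. Hnf4a made up 99.97% of the HNF4 level in control and 99.94% in Smo-KO mice, Rxra 81.5% ± 0.828 and 82.0% ± 2.40 of the retinoid X receptor level, and Pparg 84.6% ± 2.15 and 85.3% ± 2.00 of the level of Pparg and Ppard together. Rara held 71.0% ± 1.32 and 70.3% ± 3.42 of the retinoic acid receptor level and Nr1h3 74.3% ± 1.46 and 75.9% ± 1.54 of the liver X receptor level. The thyroid hormone receptors were closer to even, with Thrb at 59.7% ± 3.53 and 61.5% ± 8.74 per kb of exon union, and which of them was larger depended on the length, since per kb of the longest transcript Thra stood above Thrb in control livers, at ranks 17 and 20 of the 37. In each of these 6 families the share in Smo-KO livers overlapped that in control livers.

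The comparison of the genotypes was made with edgeR over the whole table. At an adjusted p under 0.05 it called 0 of 12977 genes (0.0%), and none of the 34 members tested. At an unadjusted p under 0.05 it gave 1797 genes (13.8%), with Smo-KO livers on the higher side for 869 (6.7%) and on the lower side for 928 (7.15%). Among the members, 5 of 34 (14.7%) were at an unadjusted p under 0.05, a share near that of all genes. Nr1i3 and Nr2f2 were higher in Smo-KO livers, and Rxrg, Nr2f6 and Nr4a2 were lower. The lowest adjusted p among the members was 0.210, for Nr4a2. The groups did not overlap for 5 of 34 members (14.7%), namely Nr1i3, Nr2f2 and Ncoa3 with all Smo-KO livers higher and Rxrg and Nr4a2 with all Smo-KO livers lower, whereas 7.37% of all genes tested had groups that did not overlap. The DESeq2 alternative called 167 genes over the whole table at an adjusted p under 0.05 and likewise no member. In whole liver, fewer cells of a type and less RNA per cell cannot be told apart.

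For most members the 2 groups were close. The median log2 fold change of the 34 was -0.01 and its median size 0.13, against a median size of 0.13 over all genes, and 28 of the 34 had a size under 0.25. The members' summed level was 2572 ± 111 CPM in control and 2567 ± 159 CPM in Smo-KO livers. The median coefficient of variation between livers was 10.8% in control and 12.8% in Smo-KO livers, of which counting alone gives a median of 5.94%. The median SE of a member's log2 fold change was 0.121.

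**Figure D2:**
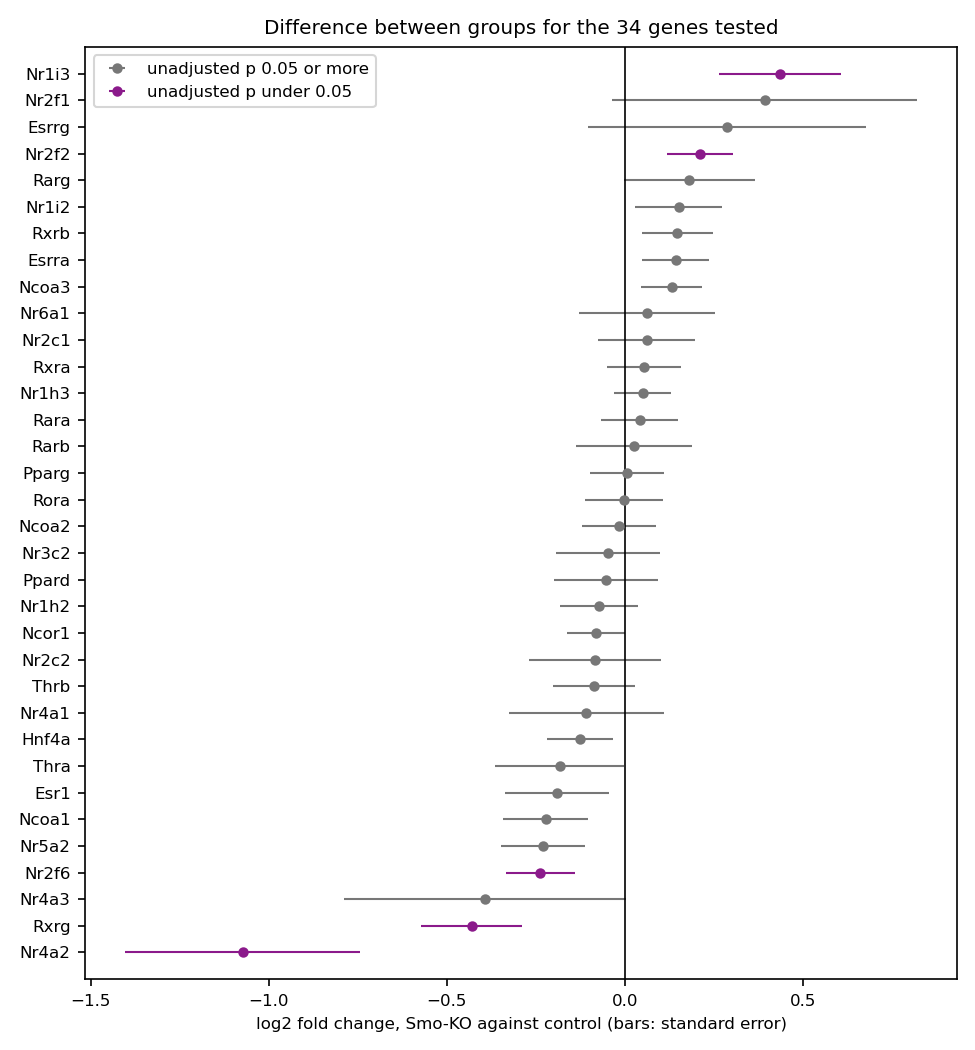
Log2 fold change of Smo-KO against control livers for the 34 genes tested, with bars for the standard error. The 5 genes at an unadjusted p under 0.05 are in purple, and most of the others lie within 0.25 of zero.

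Nr4a2 (Nurr1), an NR4A receptor, had 2.15, 3.46, 2.09 and 2.08 CPM in control livers 1 to 4 and 0.825, 0.654, 1.34 and 1.81 CPM in Smo-KO livers 1 to 4, from 19, 33, 21 and 21 reads and 8, 6, 11 and 17 reads. Every Smo-KO liver lay below every control liver, with control liver 2 well above the others and Smo-KO liver 4 close to the controls. Its log2 fold change was -1.07 (SE 0.331, edgeR adjusted p = 0.210), and it lay between -1.38 and -0.86 when any 1 liver was left out. The other NR4A genes did not separate. Nr4a1 (Nur77) was at 8.05 ± 2.01 CPM in control and 7.45 ± 2.00 CPM in Smo-KO livers, with a log2 fold change of -0.11 (SE 0.218). Nr4a3 (Nor1), at 1.73 ± 0.919 and 1.32 ± 0.506 CPM, had a log2 fold change of -0.39 (SE 0.397). Control liver 2 had the highest value of its group for all 3 NR4A genes.

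Rxrg, the least abundant retinoid X receptor, was at 14.3, 14.4, 14.5 and 13.7 CPM in control livers 1 to 4 and at 9.59, 8.29, 12.9 and 11.5 CPM in Smo-KO livers 1 to 4. The control livers lay within 1 CPM of each other and all Smo-KO livers lay below them, with Smo-KO livers 1 and 2 the lowest. The spread of the control livers (2.33%) was smaller than counting alone gives on average (8.54%), whereas that of the Smo-KO livers was 19.4%. The log2 fold change was -0.43 (SE 0.142, edgeR adjusted p = 0.236) and lay between -0.54 and -0.33 over the livers left out in turn. Rxra (472 ± 42.8 and 490 ± 59.1 CPM) and Rxrb (53.3 ± 6.54 and 59.0 ± 2.80 CPM) had log2 fold changes of 0.05 (SE 0.105) and 0.15 (SE 0.0996), with overlapping groups. Rxrg accordingly held 5.88% ± 0.525 of the retinoid X receptor level in control and 4.30% ± 1.19 in Smo-KO livers, so that its difference concerns a small part of the family's transcripts.

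A marker list of lymphocytes was lower in Smo-KO livers, as Nr4a2 and Rxrg were. All 7 of the 10 T and NK cell markers that could be tested were lower at an unadjusted p under 0.05, against 7.15% of all genes, and the lowest adjusted p of the list in edgeR was 0.0957. Their summed level was 57.7, 61.9, 51.2 and 70.3 CPM in control livers 1 to 4 and 26.7, 23.8, 39.6 and 39.4 CPM in Smo-KO livers 1 to 4, and none of the 10 was at 0 in all livers. Nkg7, a granule protein of cytotoxic lymphocytes and the most abundant of them, was at 14.5 ± 3.09 and 7.59 ± 2.44 CPM. Smo-KO livers 1 and 2, which had the lowest lymphocyte sums, also had the lowest Nr4a2 and the lowest Rxrg, whereas among the controls liver 4 had the highest lymphocyte sum and the lowest Nr4a2 and Rxrg. The part of these cells in either difference was not tested.

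Nr1i3 encodes CAR, which controls drug-metabolizing enzymes of the hepatocyte. It was at 172, 135, 84.8 and 158 CPM in control livers 1 to 4 and at 176, 173, 185 and 209 CPM in Smo-KO livers 1 to 4. The Smo-KO livers were all higher, but control liver 1 was only just below the lowest of them and control liver 3 was far below the rest. The log2 fold change was 0.44 (SE 0.171, edgeR adjusted p = 0.288). Without control liver 3 it was 0.27, and without Smo-KO liver 4 it was 0.38 and no longer at an unadjusted p under 0.05.

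Nr1i3 lies at chr1:171213970-171220701 on the plus strand (GRCm38, GENCODE M21), and 3304 of the 4414 bases of its exon union are also exon of Tomm40l, which encodes a mitochondrial import channel and is transcribed from the other strand. Tomm40l was at 174, 122, 71.3 and 155 CPM in control livers 1 to 4 and at 166, 185, 228 and 220 CPM in Smo-KO livers 1 to 4. It was lowest in control liver 3, as Nr1i3 was, and highest in Smo-KO livers 3 and 4, again as Nr1i3 was, and its log2 fold change was 0.62 (SE 0.213, edgeR adjusted p = 0.243). The ratio of Nr1i3 to Tomm40l was 1.08 ± 0.0893 in control and 0.939 ± 0.102 in Smo-KO livers. The sources used here do not say whether strand was used in counting, and without strand reads on the shared bases cannot be assigned to either gene. The xenobiotic partner Nr1i2 (PXR), which shares no exon with another counted gene, was between 95.9 and 127 CPM in control and between 105 and 152 CPM in Smo-KO livers (log2 fold change 0.15, SE 0.123), with overlapping groups.

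**Figure D3:**
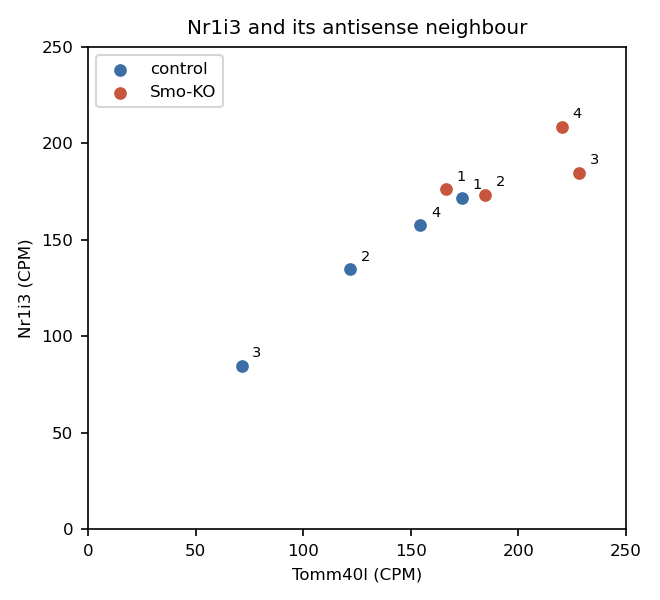
CPM of Nr1i3 against CPM of its antisense neighbour Tomm40l in each liver, numbered by mouse (blue, control; red, Smo-KO). Control liver 3 is lowest for both genes, and the ratio of Nr1i3 to Tomm40l averages 1.08 in control and 0.939 in Smo-KO livers.

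The COUP-TF receptors, which compete with other receptors for their half-sites, included a member on each side. Nr2f2 (COUP-TFII) was at 38.4, 43.2, 42.1 and 43.7 CPM in control livers 1 to 4 and at 48.4, 46.0, 45.1 and 54.4 CPM in Smo-KO livers 1 to 4. All Smo-KO livers were higher, by a margin smaller than the range of either group, and Smo-KO liver 4 was the highest. The log2 fold change was 0.21 (SE 0.0931, edgeR adjusted p = 0.338), and it lost its unadjusted p under 0.05 when any of 4 livers was left out (control 1 or 3, Smo-KO 1 or 4), with values down to 0.15 without Smo-KO liver 4. In the liver Nr2f2 is best known from mesenchymal and endothelial cells, and the summed stellate cell markers were at 1252 ± 79.1 CPM in control and 1156 ± 174 CPM in Smo-KO livers and the summed sinusoidal endothelial markers at 312 ± 31.0 and 262 ± 81.2 CPM. Of 10 stellate markers 1 (10%), the fibrillar collagen chain Col1a1, was lower at an unadjusted p under 0.05 and none higher, with Col3a1 the most abundant at 386 and 330 CPM. Of 10 endothelial markers 2 (20%), Pecam1 and Dnase1l3, were lower and none higher, with Clec4g the most abundant at 59.7 and 49.7 CPM. Both shares are to be read against the 13.8% of all genes. The stellate log2 fold changes were positive for 5 markers and negative for 5, with a median of 0.01. The abundant collagen chains Col1a1 (-0.36), Col1a2 (-0.24) and Col3a1 (-0.23) were among the negative ones and weigh most in the sum. The endothelial ones were positive for 1 and negative for 9, with a median of -0.26. No marker of either list was at 0 in all livers.

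Nr2f6 (EAR2) was at 296, 282, 307 and 255 CPM in control livers 1 to 4 and at 273, 239, 213 and 242 CPM in Smo-KO livers 1 to 4. The groups overlapped, since control liver 4 was below Smo-KO liver 1. Its log2 fold change was -0.24 (SE 0.0974, edgeR adjusted p = 0.308), and the unadjusted p was above 0.05 without control liver 1 or 3 or without Smo-KO liver 2, 3 or 4, with a value of -0.18 without Smo-KO liver 3. Ocel1, an antisense neighbour sharing 1622 exon bases, had a log2 fold change of 0.01 (SE 0.114). Nr2f2 made up 4.86% ± 0.574 of the family's level in control and 6.49% ± 0.625 in Smo-KO livers, with Nr2f2 higher and Nr2f6 lower. Nr2f1 (COUP-TFI) was near the lower limit, with 4 to 20 reads per liver.

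Among the coregulators, Ncoa3 (SRC-3) was at 41.3, 41.1, 38.4 and 42.9 CPM in control livers 1 to 4 and at 44.4, 43.3, 48.3 and 43.4 CPM in Smo-KO livers 1 to 4. The groups did not overlap, but Smo-KO livers 2 and 4 were above control liver 4 by less than 1 CPM, and the log2 fold change was 0.13 (SE 0.0858, edgeR adjusted p = 0.520). Ncoa1 (SRC-1) had a log2 fold change of -0.22 (SE 0.120, edgeR adjusted p = 0.430) and Ncoa2 (SRC-2) of -0.02 (SE 0.104). The corepressor Ncor1 was at 91.2 ± 4.24 CPM in control and 86.2 ± 3.91 CPM in Smo-KO livers (log2 fold change -0.08, SE 0.0805).

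**Figure D4:**
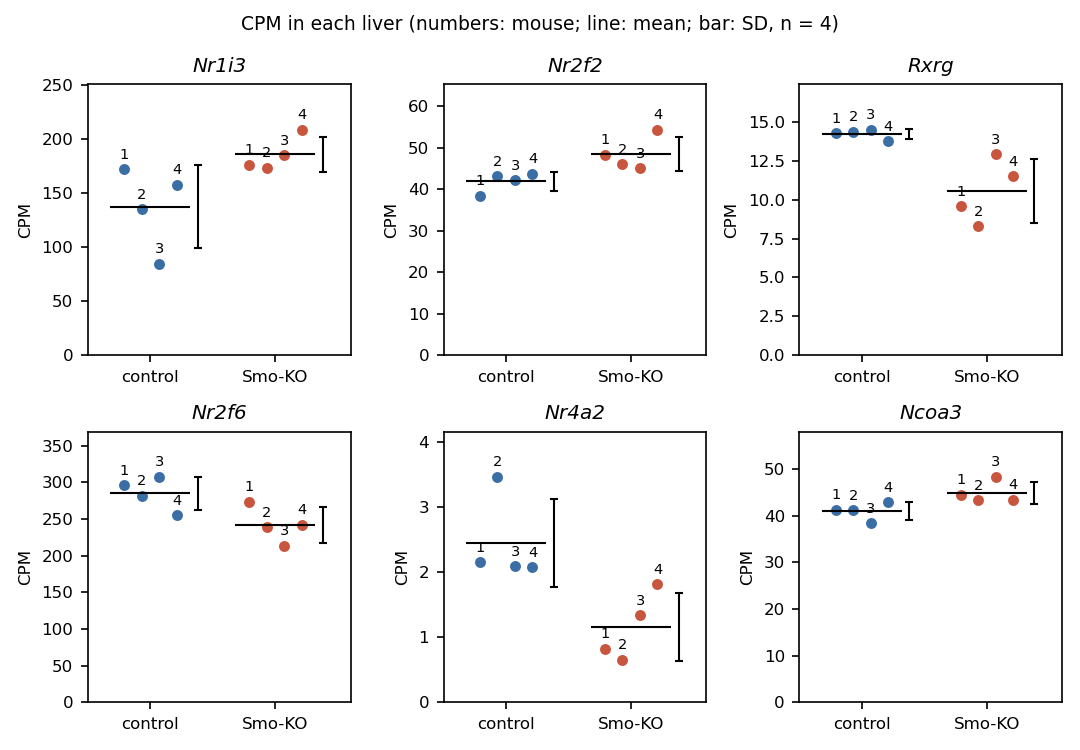
CPM of Nr1i3, Nr2f2, Rxrg, Nr2f6, Nr4a2 and Ncoa3 in each liver, numbered by mouse, with the group mean (line) and SD (bar, n = 4); every axis starts at 0. The groups overlap for Nr2f6 only.

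For the remaining receptors the unadjusted p was 0.05 or more, and their values are given with their errors. Hnf4a was at 552, 525, 520 and 566 CPM in control livers 1 to 4 and at 539, 542, 446 and 456 CPM in Smo-KO livers 1 to 4. Smo-KO livers 3 and 4 lay below all controls and Smo-KO livers 1 and 2 among them, for a log2 fold change of -0.13 (SE 0.0931, 95% interval -0.31 to 0.06). For the lipid receptors the log2 fold changes were 0.05 for Nr1h3 (95% interval -0.11 to 0.21), -0.07 for Nr1h2 (-0.29 to 0.14), 0.01 for Pparg (-0.20 to 0.21) and -0.05 for Ppard (-0.34 to 0.23). Nr5a2 (LRH-1), a phospholipid-binding receptor of bile acid and steroid metabolism, was at 30.8 ± 3.76 CPM in control and 26.2 ± 3.12 CPM in Smo-KO livers, with a log2 fold change of -0.23 (SE 0.118, edgeR adjusted p = 0.406) and overlapping groups.

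The receptors of thyroid hormone had log2 fold changes of -0.18 for Thra (SE 0.182) and -0.09 for Thrb (SE 0.115). Thra shares 263 exon bases with the clock receptor Nr1d1 on the other strand. The retinoic acid receptors had values of 0.04 for Rara (SE 0.109), 0.03 for Rarb (SE 0.163) and 0.18 for Rarg (SE 0.183). For Rarg this difference came with a wide spread, since Smo-KO liver 1 was at 19.6 CPM and the other Smo-KO livers lay between 10.9 and 12.4 CPM, within the control range of 10.8 to 12.8 CPM. Rarb (11.1 CPM in control livers) shares 1793 of its 5265 exon bases with the more abundant Top2b (53.3 CPM) on the other strand.

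Of the steroid and estrogen-related receptors, Esr1, the estrogen receptor, was at 18.8 ± 3.58 CPM in control and 16.5 ± 2.17 CPM in Smo-KO livers (log2 fold change -0.19, SE 0.147). Esrra, an orphan receptor of mitochondrial genes, had a log2 fold change of 0.14 (SE 0.0943) and Nr3c2, the mineralocorticoid receptor, of -0.05 (SE 0.146). Esrrg was at 1.31 ± 0.871 and 1.58 ± 0.339 CPM (log2 fold change 0.29, SE 0.390). The orphan receptors Rora (-0.00, SE 0.109), Nr2c1 (0.06, SE 0.136), Nr2c2 (-0.08, SE 0.186) and Nr6a1 (0.06, SE 0.192) had log2 fold changes near zero, and Nr2f1 had 0.39 (SE 0.429). All these groups overlapped. Nr2c2 (5.45 CPM in control livers) shares 4590 of its 14935 exon bases with the more abundant Mrps25 (22.9 CPM) on the other strand.

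Receptors and coregulators outside the 37 were examined for context. Of 16 other nuclear receptors, 9 could be tested, and 3 were higher and 3 lower at an unadjusted p under 0.05, which is 66.7% of those tested against 13.8% of all genes. The 2 most abundant, Ppara (180 ± 29.0 and 210 ± 30.7 CPM), the fatty acid receptor, and Nr1h4 (FXR, 175 ± 27.1 and 200 ± 16.8 CPM), the bile acid receptor, were not among them. The lowest p was that of Nr1d2 (Rev-erbβ), a repressor of the clock, with a log2 fold change of 0.49 (SE 0.0856, edgeR adjusted p = 0.0957). Among 22 other coregulators, 2 were higher and 3 lower (22.7%), including Ncoa4 (-0.50, SE 0.108, edgeR adjusted p = 0.126), which also carries ferritin to autophagy, the deacetylase Sirt1 (0.40, SE 0.135) and the corepressor subunit Tbl1xr1 (0.26, SE 0.108). The DESeq2 adjusted p was 0.0135 for Ncoa4, 0.209 for Sirt1 and 0.345 for Tbl1xr1. The most abundant of the 22, Phb2, had a log2 fold change of 0.10 (SE 0.0957).

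Known target genes of the members were counted in the same way, and the share of each list at an unadjusted p under 0.05 is to be read against the 13.8% of all genes. Of 21 targets of CAR and PXR, 19 could be tested. Cyp2b10 and Cyp2b9 had too few reads for the filter on low counts, so that these CAR and PXR targets were not compared. Of the 19 tested, 4 were higher and 1 lower (26.3%), and the median log2 fold change was 0.14. Por, which passes electrons to all microsomal cytochromes P450, was at 369, 216, 190 and 299 CPM in control livers 1 to 4 and at 406, 504, 464 and 392 CPM in Smo-KO livers 1 to 4. The groups did not overlap and the log2 fold change was 0.72 (SE 0.177, edgeR adjusted p = 0.146). Alas1, the first enzyme of heme synthesis, had 0.68 (SE 0.193) and Cyp3a13 0.41 (SE 0.121). The lower gene was Cyp2c55, with the largest change of the list (-0.91, SE 0.366), and the fourth higher gene was Cyp2c37 (0.39, SE 0.172), both named after their values were seen. The most abundant targets were not at an unadjusted p under 0.05, with 0.34 (SE 0.181) for Cyp3a11 and -0.38 (SE 0.178) for Gstm3.

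Targets of PPARγ were the list with the largest median log2 fold change among the target lists, 0.35 over 11 genes, with 4 higher and 0 lower (36.4%), while Pparg itself differed by 0.01. These 4 were Plin4 (1.06, SE 0.283, edgeR adjusted p = 0.163), Acsl1 (0.47, SE 0.162), Plin2 (0.40, SE 0.160) and Lpl (0.35, SE 0.110), which coat lipid droplets (Plin4 and Plin2), activate fatty acids or release them from lipoproteins, and several are also known targets of PPARα. The DESeq2 adjusted p was 0.0193 for Plin4, 0.130 for Acsl1 and 0.105 for Lpl. The most abundant gene of the list, Pck1, had -0.17 (SE 0.298). The adipocyte hormones Adipoq and Lep, which would mark fat tissue in the sample, had at most 1 read and 0 reads in any liver. Of all 8 adipocyte markers 3 could be tested, and all 3 had positive log2 fold changes. Lipe, which encodes hormone-sensitive lipase, was at 12.7 ± 1.97 CPM in control and 17.1 ± 2.10 CPM in Smo-KO livers, with groups that did not overlap (log2 fold change 0.44, SE 0.1397, edgeR adjusted p = 0.221). The most abundant, Cidec, a lipid droplet protein that fatty hepatocytes also make, was at 42.7 ± 14.7 CPM in control and 63.3 ± 23.1 CPM in Smo-KO livers.

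The other lists had smaller medians. Of 21 HNF4A targets 3 (14.3%) were higher, Creb3l3 (0.36, SE 0.0960), Ttpa (0.39, SE 0.132) and Apoc2 (0.73, SE 0.263), and 0 lower, with a median of -0.06, so that the share was near that of all genes. The most abundant, Apoa1 and Apob, had 0.18 (SE 0.104) and -0.09 (SE 0.113). Apoc2 rested on 15 to 48 reads per liver (2.67 ± 1.06 CPM in control and 4.41 ± 0.518 CPM in Smo-KO livers). Of 14 LXR targets 1 (7.14%) was lower, Fasn, the fatty acid synthase (-0.46, SE 0.145, edgeR adjusted p = 0.215), and the most abundant, Apoe, had 0.14 (SE 0.102). Of 12 thyroid hormone targets 4 were higher and 1 lower (41.7%), but 6 values were positive and 6 negative, with a median of -0.02. The higher ones were the deiodinase Dio1 (0.56, SE 0.222), Cpt1a (0.24, SE 0.0931), the carnitine palmitoyltransferase, Sult1d1 (0.36, SE 0.136) and Tbl1xr1 (0.26, SE 0.108). Tbl1xr1, a corepressor subunit, was also counted among the other coregulators above. The lower one was Hr, a nuclear corepressor, with -0.46 (SE 0.188), named after its value was seen.

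Of 8 retinoic acid targets tested 1 was higher and 1 lower (25%), the latter Tgm2, a transglutaminase (-0.29, SE 0.0949), and Dhrs3 had 0.12 (SE 0.124). Of 14 estrogen-related receptor targets 3 (21.4%) were at an unadjusted p under 0.05. Pdk4 (0.84, SE 0.310) and Ndufa4 (0.25, SE 0.0978) were higher and Cs, citrate synthase, lower (-0.24, SE 0.103), whereas the abundant ATP synthase genes Atp5b and Atp5a1 had -0.01 (SE 0.0837) and -0.07 (SE 0.0847). Of 10 LRH-1 targets 1 (10%) was lower, Nr0b2 (SHP, -0.65, SE 0.288), and the abundant Abcb4 and Scarb1 both had -0.03. None of 7 genes of the mineralocorticoid and glucocorticoid response was at an unadjusted p under 0.05, with -0.35 (SE 0.188) for Tsc22d3 and 0.36 (SE 0.183) for Fkbp5. The vitamin D targets Cyp24a1 and Trpv6 were at 0 reads in all livers, and of the 3 vitamin D targets tested 1 (33.3%), Orai1, was lower (-0.36, SE 0.136) and Spp1 had 0.29 (SE 0.216). No gene of any of these lists had an adjusted p under 0.05 in edgeR.

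**Figure D5:**
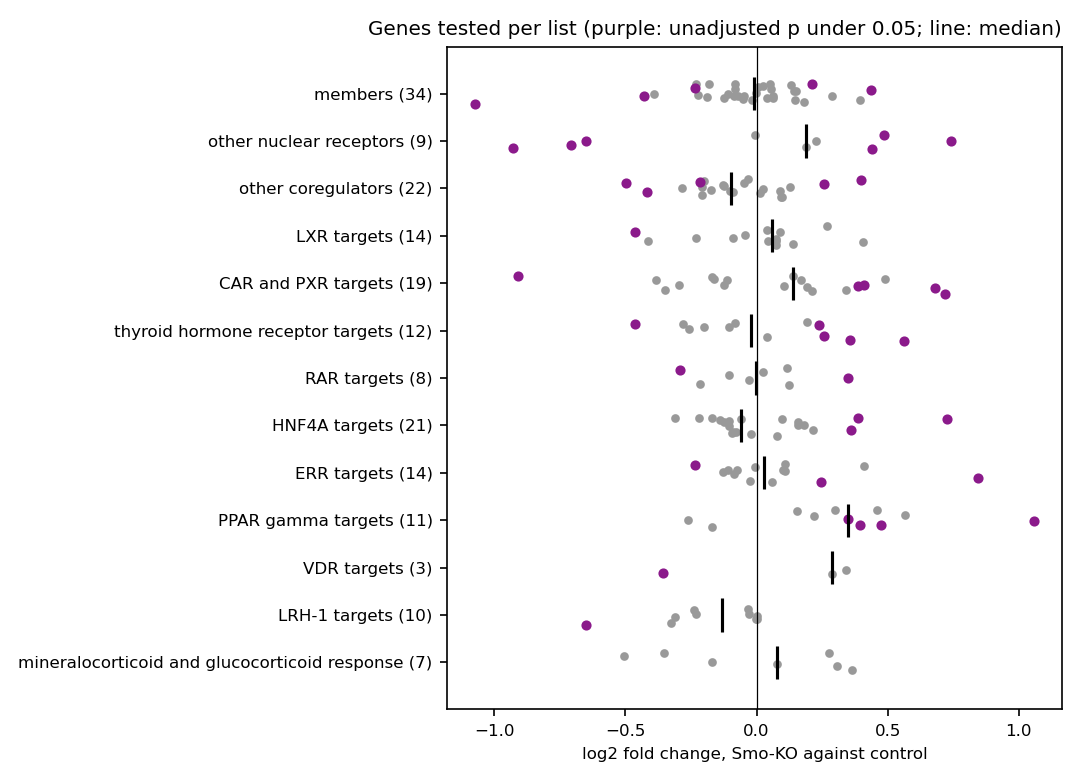
Log2 fold change of each tested gene in the list of members and in each list of other receptors, coregulators and target genes, with the number tested in brackets. Purple points are at an unadjusted p under 0.05 and the black line is the median, which is -0.01 for the members and 0.35 for the PPARγ targets.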

How the data were processed

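The authors deposited 1 list of whole-number read counts per gene symbol for each of 8 livers (NEB Next Ultra kit, NovaSeq). The submitters' processing notes name fastp, STAR 2.7.5, featureCounts 2.0.1 and GRCm38. The annotation, the use of strand and replicate handling are not given in the sources used here, and the lists end with htseq-count style entries that name no gene. Of these, reads on no feature came to 8.33% ± 0.743 of each control library and 9.23% ± 0.330 of each Smo-KO library, and ambiguous reads to 2.55% ± 0.0719 and 2.51% ± 0.0456 (SD, n = 4). Neither entered the library sizes or the fit.

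The counts were fitted with edgeR 4.0.16 under R 4.3.3. Low genes were removed by filterByExpr, libraries were scaled by TMM, and glmQLFit and glmQLFTest compared the genotypes with no covariate. Benjamini-Hochberg adjustment covered the 12977 genes left. SE is the size of the log2 fold change divided by the square root of F. The study names general tests for its comparisons and no model for read counts. DESeq2 1.42.0, RLE size factors, other count filters (none, or at least 10 reads in every liver), a replicate block and each liver left out were alternatives. Lengths and coordinates came from GENCODE M21, promoters from RefSeq (GRCm38.p6). Single values were compared by exact permutation tests over 70 assignments, two-sided.

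The members and all lists were chosen with earlier results of these data known. The genes named are the 37 members and Smo, and from each other list of receptors, coregulators or targets the 2 most abundant in control livers and up to 3 with the lowest unadjusted p under 0.05, except that some of these are not reported here. Marker genes were taken from fixed lists of hepatocyte, stellate, macrophage, endothelial, cholangiocyte, lymphocyte and adipocyte genes, and those named were picked after their values were seen.

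Each library comes from a separate mouse, as the sample titles number them, and p-values measure the spread between these mice. No pair of livers within a group was a copy of the other (chi-square of counts 8.21 to 18.6 per degree of freedom). Counting error is the only error that depth describes. On simulated counts for this comparison, a median of 12833 genes were tested (3 runs, 200 genes changed). Of all changed genes 79.8% were recovered, of those changed 2-fold or more 94.9%, and 7.01% of the calls were false. Recovery at log2 fold changes under 0.25, the size of 28 of the 34 members, was not tested separately. In the measured counts 0 of 12977 genes had an adjusted p under 0.05, so that Smo (-0.88) and Nr4a2 (-1.07) were not called either.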

Additional observations from a re-analysis of the deposited data

Results flagged for a closer look

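In each group of 4 livers, the highest and the lowest value of every member and of Smo were compared with their nearest neighbour, and 5 of 76 groups held a value that stood apart by Dixon's 95% criterion, where chance gives about 3.8. Nr4a2 in control liver 2 was at 3.46 CPM (33 reads), against 2.08 to 2.15 CPM in the other control livers, so that the highest control value adds to the difference between the genotypes. Without control liver 2 the log2 fold change of Nr4a2 was -0.86. Esrrg in control liver 1 was at 2.61 CPM (23 reads), against 0.791 to 0.994 CPM in the others, and the log2 fold change of 0.29 became 0.83 without this liver. Ncor1 in Smo-KO liver 4 was the lowest of its group at 80.4 CPM, against 87.8 to 88.8 CPM. Hnf4g was at 0 CPM in control liver 3, against 0.0989 to 0.113 CPM in the other control livers, and at 0 CPM in Smo-KO liver 4, against 0.206 to 0.244 CPM, which are differences of 1 or 2 reads.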

How the results depend on the processing

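No member reached an adjusted p under 0.05 in any of the settings tried. The number of genes called over the whole table was 0 after RLE scaling and 0 under the filter of 10 reads in every liver, 167 with DESeq2, 61 with no filter on low counts, and 0 to 78 when a liver was left out (78 without Smo-KO liver 1, 5 without control liver 1, 4 without Smo-KO liver 3). The members at an unadjusted p under 0.05 numbered 2 to 7 with a liver left out, 2 without Smo-KO liver 4 and 3 without control liver 3. Over all genes tested, the share at this p was 9.5% to 17.8% with a liver left out. It was 10.2% without Smo-KO liver 4, 10.6% without control liver 3, 14.9% without control liver 1 and 17.8% without Smo-KO liver 1. The 7 without control liver 1 held 3 of the main 5 (Rxrg, Nr1i3 and Nr4a2) with Rxrb, Esrra, Esrrg and Nr5a2, and the 6 without Smo-KO liver 1 held 4 of the 5 (not Nr2f2) with Thra and Ncoa1. With no filter Nr2f2 was not among the 4 left. Rxrg was among them in every setting and Nr4a2 in every setting that tested it. Members with groups that did not overlap numbered 5 to 10 with a liver left out, 10 without control liver 1 and 8 without Smo-KO liver 1. A smaller group separates more easily for any gene, and the share over all genes was not computed for these settings. These counts are therefore not comparable with the main count. The Smo log2 fold change passed the adjusted threshold with DESeq2 (-0.87, adjusted p = 0.00646) and with no filter (-0.88, edgeR adjusted p = 0.0385), and lay between -0.997 and -0.811 with a liver left out (without Smo-KO liver 1, -0.997, edgeR adjusted p = 0.0266).

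With the replicate block, 8 genes were called and the same 5 members were at an unadjusted p under 0.05. Same-numbered livers correlated at 0.0782, 0.248, 0.104 and 0.0889 in their deviations from the group means, and not every liver correlated best with its own number, so that the numbers were not taken to pair the mice.

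Rora changed sign with RLE size factors (0.0047), DESeq2 (0.0047) and the filter of 10 reads (0.0037). The log2 fold changes that changed sign with some liver left out ranged for Rora from -0.0661 to 0.0534, Pparg -0.0507 to 0.0709, Nr1h2 -0.146 to 0.00988, Rarb -0.101 to 0.158, Nr4a1 -0.296 to 0.0764, Nr4a3 -0.602 to 0.0184, Ncoa2 -0.0709 to 0.0497, Nr2c1 -0.0353 to 0.166, Nr3c2 -0.146 to 0.0581, Nr6a1 -0.0504 to 0.241, Thrb -0.179 to 0.00238, Rara -0.0282 to 0.110, Rarg -0.0550 to 0.271, Rxra -0.0216 to 0.117, Ppard -0.176 to 0.0433, Nr2c2 -0.168 to 0.0269 and Nr2f1 -0.0159 to 0.627. The cause of these changes was not tested. Of the members' values under the alternatives, 34 changed sign and 404 kept sign and side of the threshold. With the longest transcript as length the 10 most abundant members were the same 10, but Nr2f6 took rank 1 from Hnf4a and Nr1h2 moved from rank 7 to 5, and with no length 8 of the 10 remained.

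Genes of few reads limit the list. Vdr, Esrrb and Hnf4g had no test, and Nr2f1, Nr4a2, Nr4a3 and Esrrg rest on at most 33 reads per liver.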

Other observations

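The markers of other liver cells were measured beside the receptors, and 13.8% of all genes were at an unadjusted p under 0.05. Of 10 Kupffer cell and macrophage markers 1 (10%), Trem2, a receptor of lipid-associated macrophages, was higher in Smo-KO livers (33.6 ± 2.94 CPM in control and 56.5 ± 9.70 CPM in Smo-KO livers, log2 fold change 0.75, SE 0.126, edgeR adjusted p = 0.0957), and the summed list was at 1619 ± 248 and 1616 ± 266 CPM. Of 10 hepatocyte markers 1 (10%) was lower at an unadjusted p under 0.05, Cps1, the entry enzyme of the urea cycle (log2 fold change -0.33, SE 0.103), and the summed list was at 39680 ± 2616 and 39348 ± 1112 CPM. None of 8 cholangiocyte markers tested was at an unadjusted p under 0.05. Of the 34 members tested, Smo-KO livers 1 and 2 each had the highest value of their group for 12, Smo-KO liver 4 for 6 and Smo-KO liver 3 for 4.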
